A study of Drosophila melanogaster with 18 samples.

Results

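The comparison described here is that of young adult flies at day 1 and day 5 after eclosion, in the 2nd antennal segment of *Drosophila melanogaster*. It takes the libraries whose labels give an age of 1 day, 4 in number (2 of males and 2 of females), and those labelled 5 days, again 2 of males and 2 of females, which makes 8 of the 18 libraries of the series. The other 10 libraries come from days 10, 25 and 50 and are used only for levels at later ages. All flies were virgin Canton-S, a wild-type laboratory strain. They were collected on the day of eclosion, aged with the sexes apart and anaesthetised on ice before dissection. No treatment, transgene or mutation separates the groups, so that the only labelled differences are age and sex. RNA came from whole segments and therefore from every cell type in them, and fewer cells of a type cannot be told apart from less RNA per cell. The labels do not say whether replicates came from separate fly cultures, and p-values measure only the spread between these libraries. The time of day of dissection is not given in the sources used here.

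The 2nd antennal segment (pedicel) houses Johnston's Organ (JO), the chordotonal organ with which flies hear and sense wind and gravity. Its units, the scolopidia, hold ciliated mechanosensory neurons wrapped by a scolopale cell and suspended between cap and ligament cells that attach to the cuticle. A freshly eclosed fly is not yet a finished adult. Its cuticle is still expanded, tanned and thickened from below by the epidermis, larval fat body cells and some muscles that served eclosion are lost within days, and dying cells are cleared by glia and haemocytes.

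The 8 libraries held between 9917610 and 14315927 reads in genes. Replicates of a group correlated at r = 0.953 to 0.965 (across genes, which do not count as replicates), and the first principal component (41.1% of the variance) separated day 1 from day 5. Markers of neurons summed to 10667 to 13454 normalised read counts per library at day 1 and 10631 to 12398 at day 5, and markers of JO neurons to 3277 to 4966 and 4769 to 6753, so that the labelled tissue was present throughout. Markers of other tissues were present too. The 4 retina markers (*ninaE*, *trp*, *norpA* and *chp*) summed to 4757 to 18506 at day 1 and to 1581 to 1817 in 3 libraries of day 5, but to 90162 in male day 5 replicate 2, which also held the highest sum of fat body markers (23057, against 1914 to 5777 in the other libraries of day 5). Markers of the third antennal segment summed to 5961 to 11516 at day 1 and 3162 to 8597 at day 5, those of haemocytes to 668 to 1725 and 805 to 1874. Replicate numbers follow the order of deposit and were not taken to pair samples. Where 4 values of an age are listed without their sex, the 2 males come first.

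Between day 1 and day 5, falls outnumbered rises and were larger. Of 14171 tested genes, 1295 fell (9.14%) and 702 rose (4.95%), at a Benjamini-Hochberg adjusted p below 0.1 from limma and a fold change above 1.5, on the scale of log2(normalised read count + 1), which understates changes of low genes. All 1997 called genes (14.1%) had the same sign in males and in females. Calls were made on the change shared by both sexes, so that this follows largely from the selection and is no further support. More than 16-fold changes were found for 61 falls and 1 rise, and more than 4-fold changes for 312 falls and 72 rises. Across all tested genes the median log2 fold change was 0.02, and under TMM scaling it was -0.01. Without female day 5 replicate 1 the rises numbered 438. In 1054 of the 1295 falls and 539 of the 702 rises, the 4 libraries of one age did not overlap with those of the other. Among all tested genes this held for 10.5% (below) and 7.72% (above). The calls were made on these same values, so that little overlap among called genes follows largely from the selection and is no further support.

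**Figure D1:**
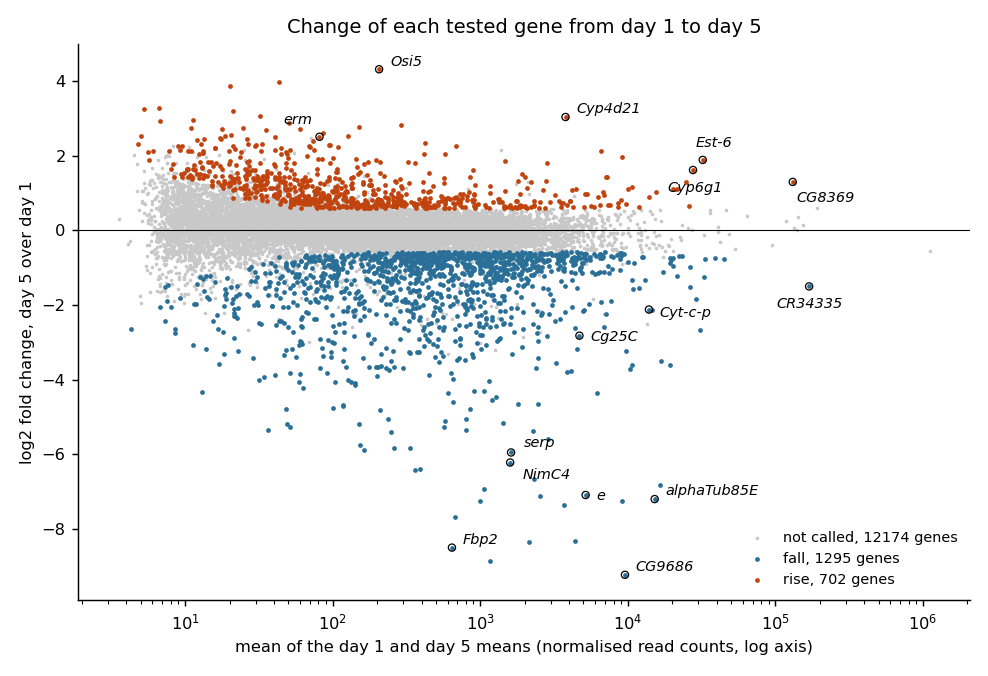
Each point is a tested gene, with its mean normalised read count on a log axis and its change on the log2 scale (day 5 minus day 1). Falls (1295 genes, blue) reach lower than -9 while rises (702 genes, red) stay below 4.4, and circled genes are described in the text.

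Falls and rises also differed in abundance. The median called fall had a mean of 529 normalised read counts, the median called rise 99.8, and the median tested gene 182. Of the 304 genes whose mean reached 5000, 27% fell and 10.2% rose, whereas below a mean of 50, where reads are few, 2.69% fell and 5.67% rose. Falls made up 7.79% of the tested genes on X, 9.05% to 9.66% on the large autosomal arms and 5.05% on chromosome 4, and none of the 29 tested genes of the mitochondrial genome was called. By gene type, 1261 of 12449 protein-coding genes fell (10.1%) and 615 rose (4.94%). Among 1432 long noncoding RNAs 27 fell (1.89%) and 69 rose (4.82%), so that falls were fewer and the share of rises was near that of all tested genes.

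**Figure D2:**
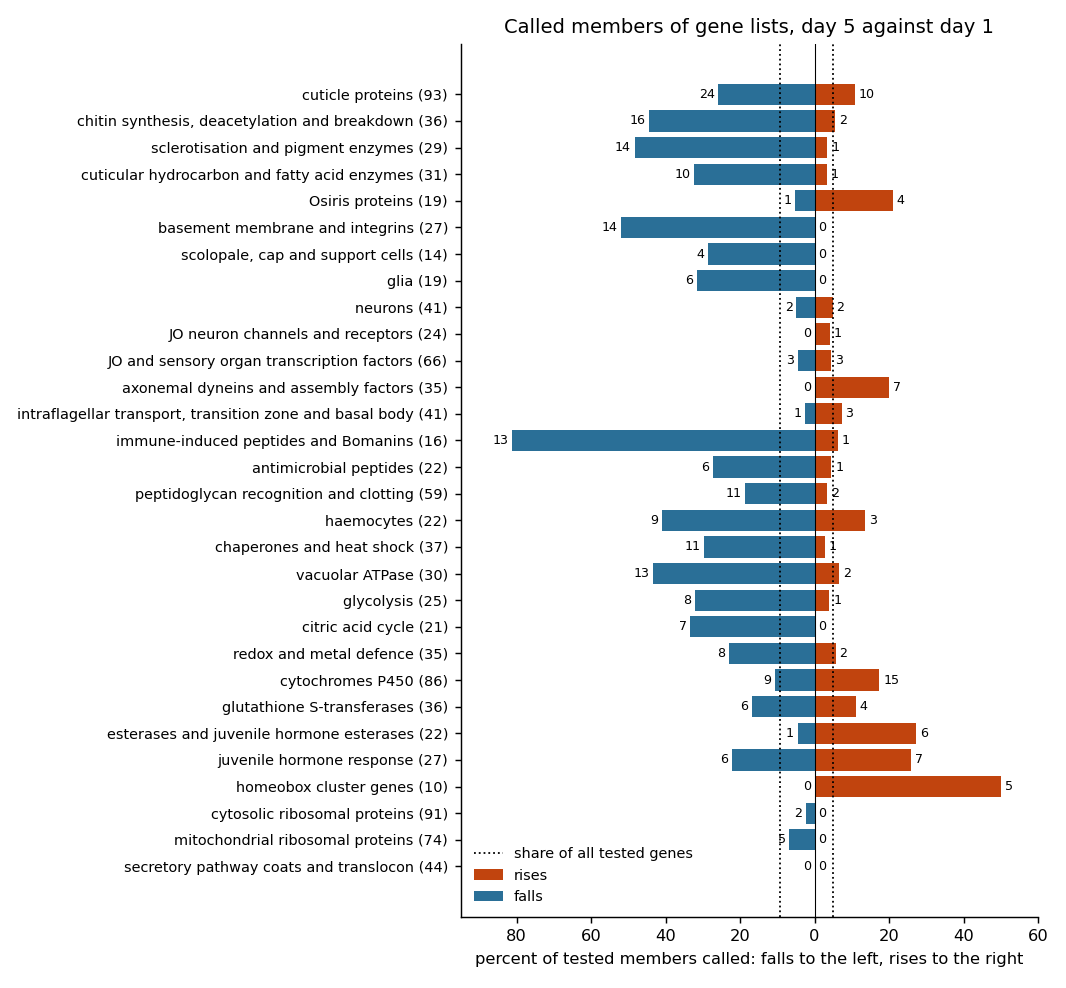
Bars give the percentage of the tested members of each gene list that fell (left) or rose (right) from day 1 to day 5, numbers beside them the count of members and numbers in brackets the members tested. Dotted lines mark the share of all tested genes, 9.14% for falls and 4.95% for rises.

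The genes that build, tan and remodel cuticle showed some of the deepest falls. Of the 29 tested enzymes of sclerotisation and pigmentation, 14 fell and 1 rose, with a median log2 fold change of -0.58, and 10 to 14 fell when each library was left out in turn. The rise was lost without male day 1 replicate 2, female day 1 replicate 1, female day 5 replicate 1 or either male of day 5. *e* (FBgn0000527, 3R from 21229839 to 21237177) encodes the enzyme that joins beta-alanine to dopamine for tanning (all coordinates are of dm6). It stood at 4042 and 6658 normalised read counts in the males of day 1 and 19655 and 10798 in the females, and at 44.2 and 113 in the males of day 5 and 36.3 and 84 in the females. Every library of day 5 was far below every library of day 1, and at day 1 both females were above both males. The log2 fold change was -7.09 ± 0.45 (SE, n = 4 per age, adjusted p = 5.72e-06 from limma, as all adjusted p-values below unless another tool is named). *b* (FBgn0000153, 2L from 13821248 to 13823979), which supplies the beta-alanine, had 3130 and 3264 in the males and 7175 and 3550 in the females of day 1 against 520.3, 579.9, 619 and 655 at day 5. The groups did not overlap, and female day 1 replicate 1 stood above the other libraries of its age. The change was -2.76 ± 0.20 (adjusted p = 1.51e-05). *ple* (FBgn0005626, 3L from 6713356 to 6719525), the tyrosine hydroxylase that begins dopamine synthesis, fell from 8145 and 8256 in males and 18374 and 12280 in females to 3222, 2959, 1787 and 1770. Females started higher and ended lower than males, with an overall change of -2.24 ± 0.29 (adjusted p = 0.000738). *yellow-d2*, of the yellow family, fell by 4.13 ± 0.46 on the log2 scale, from 267 to 14.5 (means of 4).

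Many chitin genes fell as well. Of 36 tested genes of chitin synthesis, deacetylation and breakdown, 16 fell and 2 rose (1 without female day 1 replicate 1), with a median of -0.38. The chitin deacetylases *serp* (FBgn0260653, 3L from 19700977 to 19708015) and *verm* (FBgn0261341, 3L from 19690033 to 19695260) are neighbours that modify chitin fibres in the tracheae and elsewhere. *serp* stood at 2273 and 4664 in males and 1956 and 3849 in females at day 1 and at 71.9, 39, 36.3 and 49.6 at day 5, and *verm* at 3652, 6306, 2980 and 4915 against 129, 89.6, 118 and 77.9. The ages were far apart in both genes, and in both sexes the second replicate of day 1 held the higher value. Their log2 fold changes were -5.95 ± 0.29 and -5.38 ± 0.23 (adjusted p = 1.24e-06 and 5.48e-07). The chitinase *Cht5* fell from 1121 ± 276 to 33.5 ± 16.1 (mean ± SD, n = 4) and the chitin-binding *obst-B* from 1568 ± 363 to 38.3 ± 11.6, without overlap. The rises were *Idgf4*, a chitinase-like growth factor, which went from 20159 ± 1892 to 31881 ± 4353 and fell under the limits without female day 1 replicate 1 (0.58) or female day 5 replicate 2 (0.55), and *CS-2*, the chitin synthase of the gut. *CS-2* stood at 56.1, 19.2, 6.16 and 35.5 at day 1 and at 120.3, 145, 163 and 146 at day 5, a low level throughout, with a change of 2.62 ± 0.52 (adjusted p = 0.00775).

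Cuticle proteins moved in both directions. Of 93 tested, 24 fell and 10 rose, and the median was -0.08. Most of the rises were at low levels, and 3 rose when only genes with a mean of at least 50 were fitted. The falls were the larger changes. *Cpr100A* (FBgn0039805, 3R from 30867521 to 30869184) went from 4352 and 10671 in males and 4653 and 9697 in females to 49.3, 30.1, 48 and 37.4, and *Cpr97Ea* (FBgn0039480, 3R from 27083130 to 27087778) from 664, 1872, 772 and 2060 to 10.4, 3.55, 2.14 and 6.11, in all 26 reads at day 5. Both encode proteins with a chitin-binding domain of the Rebers-Riddiford type, and in both the second replicate of each sex was the higher at day 1. The changes were -7.35 ± 0.31 and -7.67 ± 0.48. *CG16884* (now *Vajk3*), also counted among cuticle proteins, fell from 4560 ± 1002 to 43.6 ± 7.58 (mean ± SD, n = 4, adjusted p = 1.38e-08), and its day 5 libraries lay between 33.1 and 51.2. Against these, *Cpr67B* (FBgn0035985, 3L from 9404797 to 9406174) rose from 4173 and 5557 in males and 2987 and 3045 in females to 10775, 10637, 8106 and 11779 (log2 fold change 1.42 ± 0.17, adjusted p = 0.000402), so that a gene of the same family was among the abundant transcripts of day 5. *Cpr30F* rose from 25.8 ± 17.8 to 113 ± 21.6, and *Cpr65Au*, the most abundant of the list, had 29792 ± 9393 and 41904 ± 4837 and was not called (adjusted p = 0.154).

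The Osiris genes, which encode membrane proteins of cuticle-forming epithelia and lie mostly in a cluster on chromosome 3R, gave the largest rise of all. Of 19 tested, 4 rose and 1 fell, with a median of 0.20. *Osi5* (FBgn0037413, 3R from 6227512 to 6228828) stood at 19.6 and 8.55 in males and 33.3 and 17.2 in females of day 1 and at 453, 568, 259 and 291 at day 5. At day 5 both males were above both females, and no library of day 1 came near either. The change was 4.32 ± 0.40 (adjusted p = 7.10e-05). *Osi15* rose from 14.0 to 40.2 (its call was lost without female day 5 replicate 1, at 1.35) and *Osi13* from 66.3 to 134, *Osi2* fell from 239 to 41.6 (means of 4), and *Osi7*, the most abundant of the uncalled members, had 186 ± 33.3 and 239.7 ± 38.6.

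Enzymes of fatty acids and of the hydrocarbons that waterproof the cuticle fell in 10 of 31 cases, with 1 rise (2 without either female of day 1 or without male day 5 replicate 1). *CG33110*, of the fatty acid elongase family, fell from 4270 ± 397 to 1460 ± 369.9 without overlap. *Cyp4g1*, the P450 that makes hydrocarbons in oenocytes, fell from 771 ± 422 to 199 ± 208 (adjusted p = 0.0104), with overlapping libraries, and the desaturase *Desat1* had 5344 ± 662 and 9419 ± 9778 and was not called.

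**Figure D3:**
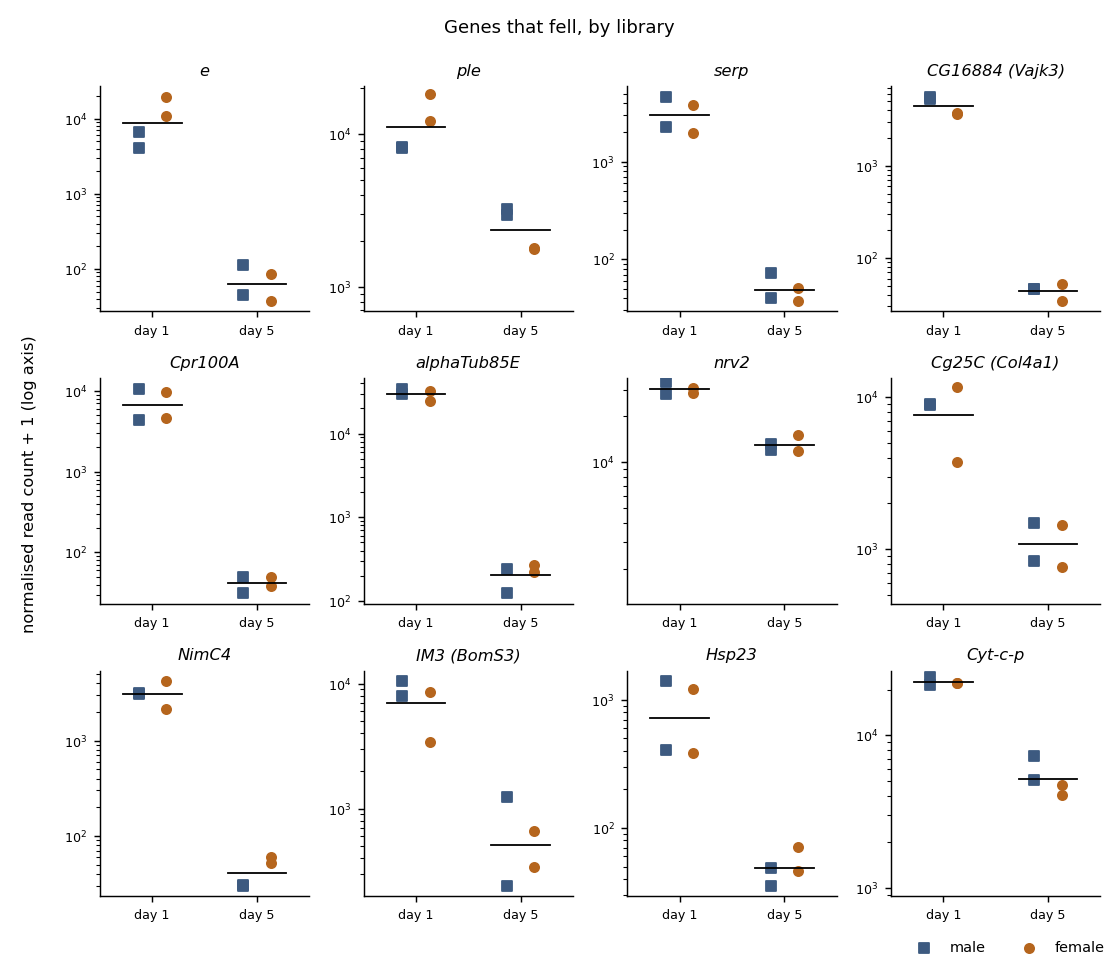
Normalised read counts plus 1 on a log axis in each of the 8 libraries, males as squares and females as circles, for 12 genes that fell. The line is the mean on the log scale, and in every panel the 4 libraries of day 5 lie below the 4 of day 1.

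Several of the largest falls were in genes of unknown or little known function. *CG9686* (FBgn0030158, X from 9879870 to 9880535), which has no known function, stood at 6039 and 6030 in males and 48967 and 15404 in females at day 1, and at 16.4, 30.1, 14.9 and 23.7 at day 5. Its level differed several-fold among the libraries of day 1, with the females higher, and was low in all of day 5. The change of -9.23 ± 0.50 (adjusted p = 2.31e-06) was the largest among all called genes. *CG8736* (FBgn0033308, 2R from 8594031 to 8595001), likewise of unknown function, went from 2142, 5505, 3262 and 6274 to 13, 7.98, 9.61 and 14.5. *CG2650* (now *dyw*, for *daywake*), named for its effect on daytime sleep, fell from 18108 ± 9136 to 108 ± 22.4 (mean ± SD, n = 4). *Nplp3* (FBgn0042201, 3L from 16318024 to 16318690), a precursor of neuropeptide-like secreted peptides, was one of the most abundant transcripts of day 1, at 23295 and 41703 in males and 20710 and 45169 in females, and had fallen to 97, 387, 329 and 451. At day 1 the second replicate of each sex was again the higher. Its change was -6.81 ± 0.43 (adjusted p = 5.30e-06). Another such precursor, *Nplp2*, stood at 43803, 58660, 24875 and 58928 at day 1 and at 3209, 45175, 1639 and 9986 at day 5, where male day 5 replicate 2 reached the range of day 1 (-2.66 ± 0.78, adjusted p = 0.0478). Its call was lost without male day 1 replicate 2 (-2.69), female day 1 replicate 2 (-2.29), male day 5 replicate 1 (-2.01) or female day 5 replicate 1 (-2.02). *CG17298* (change -8.86 ± 0.89), *CG8483* (-8.31 ± 0.61), *CG13639* (-7.26 ± 0.56) and *CG4962* (-6.93 ± 0.39) were further genes known by CG numbers among the 15 largest falls, all without overlap.

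*Fbp2* (FBgn0000640, 2L from 9426784 to 9427917), a protein of the larval fat body, stood at 181 and 3985 in the males and 563 and 410.0 in the females of day 1, where male day 1 replicate 2 was far above the others. At day 5 the 4 libraries held 5 reads between them. The fitted change of -8.50 ± 0.87 therefore depends on the added count of 1. The storage protein *Lsp1gamma* fell from 918 ± 535 to 113 ± 36.0 and *Fbp1* from 1324 ± 1814 to 64.6 ± 9.51. Sums of fat body markers overlapped between the ages (2081 to 7288 and 1914 to 23057), and their part in these results was not tested.

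Among proteins that carry juvenile hormone or respond to it, 7 of 27 rose and 6 fell, both above the share of all tested genes. *CG5867* (FBgn0027586, 2L from 13236494 to 13239297) (now *Jhbp14*), of a family of secreted proteins related to juvenile hormone binding proteins, fell from 29099 and 61757 in males and 32880 and 60086 in females to 10043, 12967, 10016 and 16464. The second replicate of each sex was again the higher at day 1, and the groups did not overlap (change -1.84 ± 0.28, adjusted p = 0.00173). *CG11852* (*Jhbp7*) fell from 429 ± 38.7 to 33.3 ± 8.55 and *CG1124* (*Jhbp1*) from 879 ± 215 to 226 ± 56.9, *CG15497* (*Jhbp16*) rose from 37.7 ± 10.2 to 119 ± 16.2, and the abundant *CG5945* (*Jhbp13*) had 30356 ± 3883 and 42253 ± 7663 (adjusted p = 0.0826 with a change of 0.47, under the fold limit).

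Among genes of the cells that hold the scolopidia, the deepest fall was that of a tubulin. *alphaTub85E* (FBgn0003886, 3R from 9731221 to 9733250) encodes an alpha-tubulin of the cap and attachment cells of chordotonal organs. It stood at 29633 and 34428 in males and 24868 and 31896 in females of day 1 and at 242, 122, 219.9 and 264 at day 5. Replicates differed little, and the lowest library of day 1 held 24868 and the highest of day 5 held 264. The change was -7.20 ± 0.22 (adjusted p = 5.04e-08). *nrv2* (FBgn0015777, 2L from 6789770 to 6798862), which encodes a sodium potassium pump subunit of scolopale cells and glia, fell from 33692 and 28063 in males and 30550 and 28345 in females to 13123, 12133, 11937 and 15188, a smaller change of -1.21 ± 0.14 (adjusted p = 0.000305). *nompA* (FBgn0016047, 2R from 11310335 to 11318676), which encodes the extracellular cap that ties neuronal cilia to the cuticle, went the other way, with 347, 281, 264 and 326 at day 1 and 429, 431, 426 and 489.6 at day 5. It did not overlap between ages (adjusted p = 0.0293) but stayed under the fold limit at 0.55. Of the 14 tested genes of scolopale, cap and support cells, 4 fell and none rose, with 1 rise without male day 1 replicate 1 and 2 without female day 1 replicate 2.

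Cytoskeletal genes of wider expression were also among the falls. *Act42A* (FBgn0000043, 2R from 6013910 to 6015689), a cytoplasmic actin, went from 3470, 3854, 5467 and 4775 to 251, 518, 303 and 315, a change of -3.69 ± 0.22, whereas *Act5C*, the other cytoplasmic actin, fell by 0.80 ± 0.15. The beta-tubulin *betaTub56D* fell from 26706 ± 3851 to 13878 ± 2236, and *alphaTub84B*, the general alpha-tubulin, had 18081 ± 1806 and 13182 ± 1832, a change of -0.46 under the fold limit. Of 12 tubulins 4 fell, and of 43 actins and their regulators 11 fell, with no rise in either list. These lists are not limited to genes of wide expression. The tubulin falls include *alphaTub85E*, described above, and the actin falls include the muscle gene *Act88F* (-7.11). Muscle genes fell in 26 of 36 cases (median -1.28) with *Mlc2* from 35600 ± 7408 to 2940 ± 594 (mean ± SD, n = 4), and the muscle markers summed to 39420 to 63591 at day 1 and 6503 to 8254 at day 5. The part of muscle in the falls of shared cytoskeletal and mitochondrial genes was not tested.

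Genes of the extracellular matrix that underlies these tissues fell too. In the list of basement membrane and integrin genes 14 of 27 fell and none rose, with a median of -0.77 and 12 to 16 falls with each library left out. *Cg25C* (FBgn0000299, 2L from 5029609 to 5037279) (now *Col4a1*) and *vkg* (FBgn0016075, 2L from 5012144 to 5028191) are neighbouring genes that encode the chains of collagen IV. *Cg25C* stood at 8871 and 8965 in males and 3711 and 11533 in females of day 1 and at 832, 1491, 763 and 1436 at day 5, *vkg* at 4105, 4436, 1567 and 5575 against 447, 809, 458 and 931. In both genes female day 1 replicate 1 was the lowest of its age, yet above every library of day 5. Their changes were -2.82 ± 0.34 and -2.50 ± 0.38 (adjusted p = 0.000441 and 0.00185). The laminin chain *LanB2* fell from 1288 ± 458 to 409 ± 69.1, the matrix protein *BM-40-SPARC* from 6722 ± 1609 to 3080 ± 774, and the lysyl oxidase *lox2* from 482 ± 89.8 to 135 ± 28.9.

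*NimC4* (FBgn0260011, 2L from 14047582 to 14048863), also called simu, encodes a receptor for apoptotic cells on glia and macrophages. It stood at 3062 and 3154 in males and 2154 and 4216 in females at day 1 and at 29.4, 29.3, 51.2 and 58.8 at day 5. Day 5 libraries held between 29.3 and 58.8, against at least 2154 at day 1, a change of -6.22 ± 0.24 (adjusted p = 3.13e-07). *prtp* (FBgn0030329, X from 11716756 to 11719894), an endoplasmic reticulum protein that acts as a ligand of the engulfment receptor Draper, fell from 5220, 5349, 3283 and 6244 to 614, 769, 620.2 and 739. The change was -2.84 ± 0.19 (adjusted p = 7.71e-06), without overlap. *Dronc* (FBgn0026404, 3L from 9968479 to 9971002), the initiator caspase, was chosen after its values were seen. It stood at 1580, 2331, 2886 and 3011 at day 1 and at 74.5, 142, 118 and 101 at day 5, a change of -4.47 ± 0.22 (adjusted p = 1.24e-06).

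In the haemocyte list, 9 of 22 fell and 3 rose, and this count depended on male day 5 replicate 2, without which 11 fell, and on female day 5 replicate 1, without which 5 fell. *NimB3*, a relative of *NimC4*, went from 596 ± 101 to 74.7 ± 49.5, and the scavenger receptor *crq* from 3054 ± 774 to 1564 ± 461. *atilla*, a surface protein known from lamellocytes, rose from 4350 ± 557 to 8160 ± 1416. The defining haemocyte markers *Hml*, *eater*, *NimC1* and *PPO1* summed to overlapping ranges at the 2 ages (668 to 1725 and 805 to 1874), with 1 of the 4 called (*eater*, -1.30). Its call was kept only without female day 1 replicate 1 or male day 5 replicate 2, and its change was -0.86 without male day 5 replicate 1. Among 19 glial genes 6 fell and none rose (median -0.46). They included the blood-brain barrier transporter *Mdr65*, from 2521 ± 189 to 1323 ± 286, and the astrocyte gene *alrm*, from 92.6 ± 34.4 to 15.4 ± 10.7, while the abundant glutamine synthetase *Gs2* had 24788 ± 3719 and 20752 ± 2427 (change -0.25, adjusted p = 0.267).

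In each family of immune effectors described here falls outnumbered rises, with exceptions inside the families. Bomanins are short peptides secreted on Toll signalling, known for defence against fungi and Gram-positive bacteria. Of the 16 tested Bomanins and other immune-induced peptides, 13 fell and 1 rose, the highest share of falls in any list described here, with a median of -2.34. *IM3* (FBgn0040736, 2R from 18387895 to 18388734) (now *BomS3*) stood at 7942 and 10499 in males and 3423 and 8621 in females of day 1 and at 242, 1246, 341 and 659.9 at day 5. No libraries overlapped, with male day 5 replicate 2 the highest of its age and female day 1 replicate 1 the lowest of its own, and the change was -3.78 ± 0.47 (adjusted p = 0.000549). *CG15067* (FBgn0034331, 2R from 18384824 to 18385589) (*BomBc2*) showed the same spread more strongly, at 12028, 15332, 5807 and 12261 against 189, 2976, 171 and 781. The change was -4.35 ± 0.74 (adjusted p = 0.00336), and it was -5.18 without male day 5 replicate 2. Across all 13 falling members the libraries of day 1 summed to 30983 to 61326, male day 5 replicate 2 to 20823 and the other libraries of day 5 to 3646 to 7297.

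The exception was *CG18067* (FBgn0034512, 2R from 20534245 to 20535835), now called bombardier (*Bbd*), a gene needed for the presence of short Bomanins in the haemolymph. It rose from 10127 and 10685 in males and 10003 and 9952 in females to 22457, 20314, 18190 and 21835, with little spread within ages (change 1.02 ± 0.12, adjusted p = 0.00038). Antimicrobial peptides fell in 6 of 22 cases, a count that both grew and shrank when single libraries were left out. Their median of -1.0 was -0.40 without male day 5 replicate 1 and -1.42 without male day 1 replicate 1. *Drs*, the antifungal drosomycin (FBgn0010381), fell from 1010, 1603, 899 and 1390 to 27.7, 180.0, 101 and 61.1 (change -3.98 ± 0.47, adjusted p = 0.000402). The far more abundant relative *Drsl5* (FBgn0035434, 3L from 3316781 to 3317144) rose, from 14474 and 12604 in males and 20966 and 8239 in females to 31010, 27080, 26904 and 31363. Female day 1 replicate 1, at 20966, came closest to the lowest library of day 5, at 26904, and the change was 1.12 ± 0.25 (adjusted p = 0.0125). In peptidoglycan recognition and clotting 11 of 59 fell and 2 rose (1 without male day 1 replicate 1, male day 5 replicate 2 or female day 5 replicate 1). The falls included the clotting protein *fon* (1732 ± 667 to 319.9 ± 333) and *SPE*, which activates the Toll ligand Spätzle (4527 ± 936 to 2203 ± 393), and *Tep4*, a thioester protein, rose from 1703 ± 354 to 3611 ± 755.

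Several heat shock genes fell, with large differences among libraries. Of 37 chaperone genes 11 fell and 1 rose. *Hsp23* (FBgn0001224, 3L from 9381882 to 9382765), a small heat shock protein, stood at 405 and 1403 in males and 383 and 1220 in females of day 1 and at 34.6, 47.9, 70.5 and 45.1 at day 5. In both sexes the second replicate of day 1 was more than 3 times the first, and all libraries of day 5 were lower still (change -3.88 ± 0.43, adjusted p = 0.000273). *Hsp70Bb* (FBgn0013278, 3R from 12505793 to 12508139), from a cluster of near-identical copies between which reads cannot be assigned with certainty, had 146, 158, 11.1 and 142 at day 1 and 4.33, 3.55, 7.47 and 1.53 at day 5. Female day 1 replicate 1 stood apart at 11.1, still above day 5, which held 18 reads in all. *Hsp83* (FBgn0001233, 3L from 3192969 to 3197059), the fly Hsp90, fell from 12287, 24865, 12014 and 20646 to 9528, 3830, 8166 and 3688, where male day 5 replicate 2 and female day 5 replicate 2 were lower than their partners (change -1.53 ± 0.35, adjusted p = 0.0165). The constitutive *Hsc70-4* had 24281 ± 5709 and 16494 ± 2619, under the fold limit.

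Each list of energy metabolism genes encoded in the nucleus held falls, whereas none of the 29 tested genes of the mitochondrial genome was called (1 rose without female day 5 replicate 2). Among 25 tested genes of glycolysis and glycogen 8 fell and 1 rose (median -0.39), among 21 of the citric acid cycle 7 fell and none rose (median -0.36), and among 68 nuclear genes of the respiratory chain 24 fell and none rose (median -0.46). The last count was 11 without female day 1 replicate 1 and 28 without male day 5 replicate 2, and 1 rose without male day 1 replicate 1. Taken within each sex, 5 of these respiratory chain genes fell in males and 27 in females, although no gene passed the limma test of a difference between the sexes. *Cyt-c-p* (FBgn0000409), the somatic cytochrome c, stood at 21511 and 24336 in males and 22083 and 22107 in females of day 1 and at 5098, 7320, 4085 and 4741 at day 5. Replicates were close and the change was -2.12 ± 0.15 (adjusted p = 1.52e-05), well beyond the list's median. *kdn* (FBgn0261955, X from 6350629 to 6361323), the citrate synthase, fell from 12261, 14275, 9207 and 12317 to 5478, 6374, 4554 and 6625, a change of -1.06 ± 0.16. *Gapdh1* fell from 14142 ± 1891 to 7798 ± 1405 and the glycogen phosphorylase *GlyP* from 8386 ± 2683 to 3640 ± 1034, whereas *Gapdh2* had 18274 ± 972 and 14031 ± 1503 (change -0.39) and the aldolase *Ald* 21127 ± 2736 and 17936 ± 2771 (change -0.24), neither called.

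The vacuolar ATPase, which acidifies organelles and energises ion transport, fell in 13 of 30 tested subunits with 2 rises (1 without female day 1 replicate 2 or female day 5 replicate 1). *Vha26* (FBgn0015324), subunit E, fell from 10129 and 9755 in males and 9531 and 9430 in females to 4699, 5640, 4772 and 4975 without overlap (-0.95 ± 0.11, adjusted p = 0.000333). The risers were *Vha36-2* (log2 fold change 1.23 ± 0.22) and *VhaPPA1-2* (5.47 ± 1.82 to 20.5 ± 9.42). The call of *VhaPPA1-2* was lost without female day 1 replicate 2 (1.47) or female day 5 replicate 1 (1.36). Both ferritin genes fell, with *Fer1HCH* (FBgn0015222, 3R from 30385573 to 30388178), the ferritin heavy chain, at 41092, 44137, 24834 and 45734 at day 1 and 11870, 17206, 10241 and 14852 at day 5 (change -1.51 ± 0.22), and the light chain *Fer2LCH* from 24027 ± 6789 to 10818 ± 2283. The metallothionein *MtnB* fell from 324 ± 94.3 to 26.2 ± 13.5 (mean ± SD, n = 4, adjusted p = 4.91e-06). In the redox and metal list 8 of 35 fell. One of its 2 rises was *Tsf1* (FBgn0022355, X from 18387084 to 18390344), the iron carrier transferrin of the haemolymph, at 3292 and 3533 in males and 2826 and 4121 in females of day 1 and 7335, 26123, 10742 and 15272 at day 5. Male day 5 replicate 2 was the highest library, and without any 1 library the change stayed between 1.59 and 2.32.

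Few ribosomal protein genes and genes of the secretory pathway were called. Of 91 cytosolic ribosomal protein genes 2 fell and none rose, with a median of 0.08. Of 74 mitochondrial ones 5 fell and none rose, but the median was -0.22 and 61 lay below 0. In 17 of these 74 all libraries of day 5 were below all of day 1, against 10.5% of all tested genes. Of 44 genes of secretory coats and the translocon none was called, with all changes between -0.46 and 0.42. The falls of cytosolic ribosomal proteins numbered 0 without male day 5 replicate 1 and 1 without male day 1 replicate 2, either female of day 1 or female day 5 replicate 1, and 1 rose without male day 5 replicate 2. Those of mitochondrial ones numbered 2 without female day 1 replicate 1 or female day 5 replicate 1 and 8 without male day 5 replicate 2, and 1 secretory gene fell without male day 1 replicate 1. Counts under the share of all tested genes do not show that these genes were unchanged.

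Cytochromes P450 and esterases held more rises than falls, and the other families of detoxification did not. Of 86 cytochromes P450, which oxidise toxins, hormones and lipids, 15 rose and 9 fell, and of 22 esterases and juvenile hormone degrading enzymes 6 rose and 1 fell (2 without male day 1 replicate 1, 3 without male day 5 replicate 2). *Est-6* (FBgn0000592, 3L from 12188818 to 12190705), a carboxylesterase of the antenna and of seminal fluid, was among the most abundant transcripts. It stood at 14056 and 14698 in males and 14361 and 11523 in females of day 1 and at 48521, 56088, 44424 and 53775 at day 5. The sexes were alike within each age, and the change was 1.89 ± 0.14 (adjusted p = 1.68e-05). *Cyp6g1* (FBgn0025454, 2R from 12185667 to 12188431), a P450 known for insecticide resistance, rose from 13578, 14777, 16245 and 9896 to 43941, 47410, 31865 and 43550 (change 1.62 ± 0.18, adjusted p = 0.000253). *Jheh2* (FBgn0034405, 2R from 18855767 to 18858245), a juvenile hormone epoxide hydrolase, rose from 1324, 1451, 2328 and 1362 to 3832, 4785, 3334 and 4023. Female day 1 replicate 1 was the highest of its age without reaching day 5, with a change of 1.33 ± 0.19, and *Jheh1* rose from 2876 ± 882 to 6102 ± 1581.

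The P450 genes that fell included *Cyp4e3* (FBgn0015035, 2L from 9747839 to 9750071), from 4061 and 4502 in males and 1511 and 3623 in females to 89.2, 383, 71.5 and 101, with male day 5 replicate 2 the highest of its age (change -4.65 ± 0.40), and *Cyp4s3*, from 992 ± 303 to 98.7 ± 8.46. Glutathione S-transferases went both ways, with 4 rises and 6 falls of 36, and both counts depended on single libraries. Their median of 0.01 lay between -0.04 and 0.11 with each library left out. Of 34 UDP-glycosyltransferases 1 rose and 1 fell, with 2 rises without male day 1 replicate 2 or female day 1 replicate 1 and 2 falls without male day 5 replicate 2. *GstZ2* rose from 461 ± 64.2 to 1251 ± 217 (mean ± SD, n = 4), while *GstE14*, known as noppera-bo in ecdysone synthesis, fell from 289.5 ± 76.8 to 59.8 ± 63.5, and the abundant *GstD1* had 23968 ± 4180 and 21066 ± 2464 (change -0.18). *hgo* (FBgn0040211, 2L from 11136393 to 11138565), the homogentisate dioxygenase of tyrosine breakdown, rose from 105, 158, 77.7 and 230.3 to 879, 898, 557 and 467 (change 2.35 ± 0.32, adjusted p = 0.000958), and *to* (FBgn0039298, 3R from 25240180 to 25241668), the feeding-related takeout gene, from 7292, 6168, 7068 and 4102 to 13070, 21185, 8467 and 12436. The most abundant rise was *CG8369* (FBgn0040532), from 76812 ± 21566 to 185383 ± 20453, followed by *Est-6* and *Cyp6g1*, and the odorant binding protein gene *Obp56d* rose from 14376 ± 4398 to 35049 ± 6457. The most abundant fall was the noncoding RNA *CR34335* (FBgn0085364), from 259179 ± 173631 to 79404 ± 13790, with female day 1 replicate 1 the highest library at 507244.

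**Figure D4:**
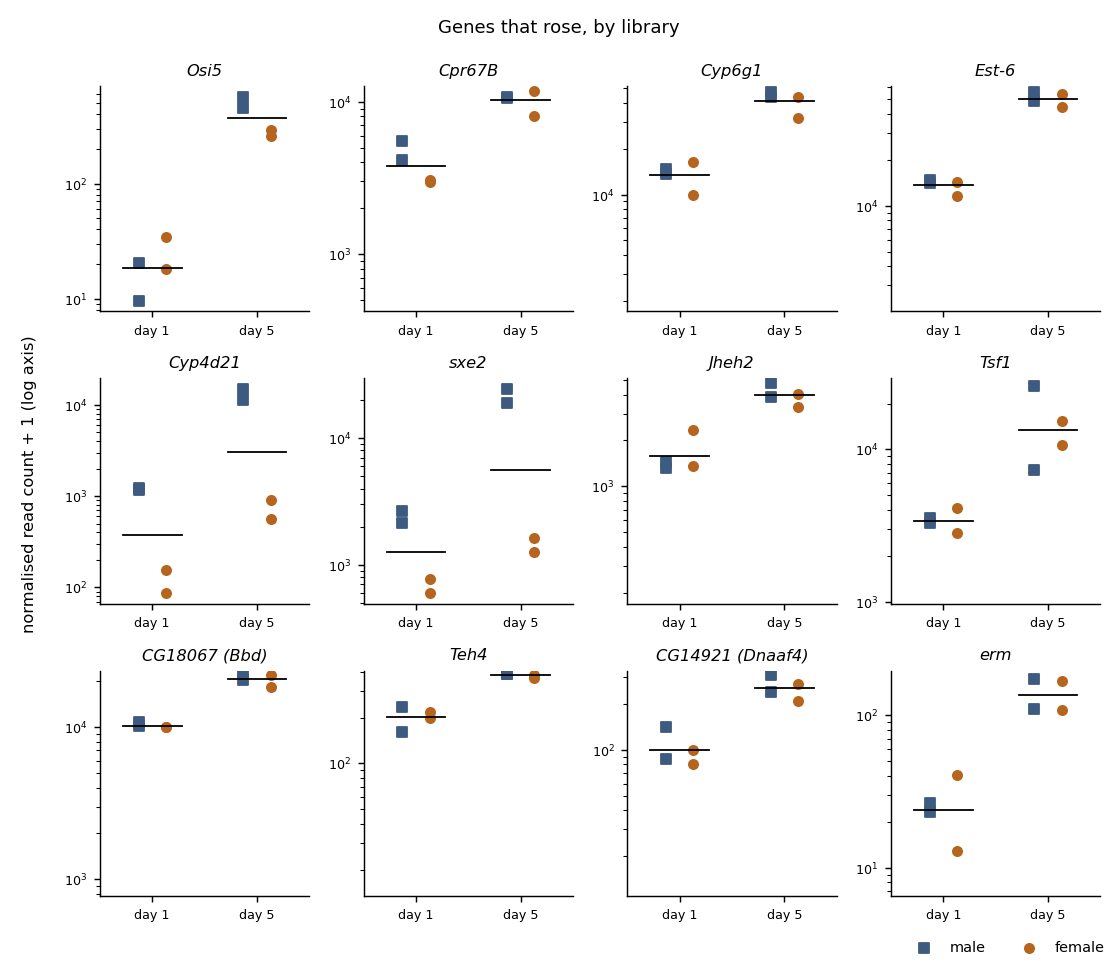
Normalised read counts plus 1 on a log axis in each of the 8 libraries, males as squares and females as circles, for 12 genes that rose, with the mean on the log scale as a line. *Cyp4d21* and *sxe2* show male levels far above female levels at both ages, and within each sex day 5 is above day 1.

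A pair of genes that differ strongly between the sexes rose in both. *Cyp4d21* (FBgn0031925, 2L from 7605600 to 7607701), also called sxe1, and *sxe2* (FBgn0038398, 3R from 16083878 to 16087222), a lipase-like gene, are known as sex-enriched genes of the male head. *Cyp4d21* stood at 1222 and 1164 in males and 153 and 85 in females of day 1 and at 14992, 11171, 911 and 567 at day 5. The females of day 5 remained below the males of day 1, while within each sex the ages did not overlap. The change was 3.44 in males and 2.64 in females on the log2 scale. *sxe2* stood at 2140, 2663, 766 and 594 at day 1 and at 24588, 19022, 1624 and 1260 at day 5, a rise of 3.18 in males and 1.08 in females. Its difference between the sexes, 2.10 ± 0.31, had the lowest unadjusted p of all genes (7.63e-05) but an adjusted p of 0.999 in limma, and DESeq2 on the reads gave 2.11 with an adjusted p of 2.52e-05.

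The called genes of the motile machinery of JO cilia all rose. Of 35 axonemal dyneins and assembly factors, which move the cilium, 7 rose and none fell (median 0.24), although 2 did so without male day 5 replicate 1, 3 without male day 1 replicate 2 and 4 without female day 5 replicate 2. *CG14921* (FBgn0032345, 2L from 11120642 to 11121714) (now *Dnaaf4*), a dynein assembly factor, rose from 139 and 85.5 in males and 80.1 and 99 in females to 308, 238, 209 and 269, without overlap (change 1.35 ± 0.21, adjusted p = 0.00185). *Dhc93AB* (FBgn0013812, 3R from 21024580 to 21042499), an outer arm dynein heavy chain and marker of JO neurons, stood at 2454, 2255, 1481 and 1812 at day 1 and at 3699, 2756, 2545 and 2957 at day 5. It passed narrowly (0.59 ± 0.14, adjusted p = 0.0186) and fell under the fold limit without female day 1 replicate 1 (0.50), male day 5 replicate 1 (0.54) or female day 5 replicate 2 (0.52). *Dhc36C* rose from 409 ± 49.3 to 738 ± 137. In intraflagellar transport and the ciliary base 3 of 41 rose (7.32%), not far from the 4.95% of all tested genes. These were *unc*, *dila* and *BBS8* (log2 fold changes 1.31 ± 0.38, 0.97 ± 0.26 and 0.61 ± 0.14). No gene of the list rose without female day 5 replicate 1 (where these had 1.20, 0.93 and 0.56), and 1 did without male day 1 replicate 2 or female day 5 replicate 2. *unc* also lost its call without female day 1 replicate 1 (1.11) and *BBS8* without female day 1 replicate 2 (0.52). The centriole gene *asl* fell by 1.21 ± 0.28, as 1 of 2 falls without female day 1 replicate 1.

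Of 24 channels and receptors of JO neurons, only *Teh4* was called, a rise (4.17%, against 4.95% of all tested genes). Without male day 5 replicate 2, 3 fell and 2 rose, and 2 rose without male day 1 replicate 1 or female day 1 replicate 2. *Teh4* (FBgn0035504, 3L from 4174859 to 4178270) encodes a relative of the sodium channel subunit TipE and stood at 232 and 161 in males and 198 and 216 in females of day 1 and 388, 388, 378 and 365 at day 5. The day 5 libraries lay within 365 to 388, and the change was 0.92 ± 0.15 (adjusted p = 0.00322). *nompC* (FBgn0016920, 2L from 5346200 to 5365760), the transduction channel, had 633, 594, 491 and 546 against 931, 703, 883 and 789, and *elav*, a marker of all neurons, had 922, 907, 897 and 850.1 against 1358, 1217, 1322 and 1179. Both were higher in every library of day 5, with changes of 0.54 ± 0.14 and 0.50 ± 0.11 that stayed under the fold limit (adjusted p = 0.0252 and 0.0121). In the wider neuronal list 2 of 41 rose and 2 fell (4.88% each), against 4.95% and 9.14% of all tested genes. The rises numbered 1 when any 1 of 5 libraries was left out (male day 1 replicate 2, female day 1 replicate 1, male day 5 replicate 2 and both females of day 5), and the falls 1 when any 1 of 4 was left out (male day 1 replicate 1, male day 5 replicate 1 and both females of day 5). *Vmat* (FBgn0260964, 2R from 13513132 to 13534251), the vesicular monoamine transporter, rose from 2949, 3036, 2747 and 3143 to 5122, 4086, 4531 and 5487 (0.69 ± 0.12). *Gad1* (FBgn0004516, 3L from 4074077 to 4088744), the enzyme that makes GABA, fell from 803 and 596 in males and 1002 and 810.2 in females to 82.2, 144, 106 and 78.7, the largest change of the list (-2.97 ± 0.23, adjusted p = 2.05e-05).

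Among 66 transcription factors of the antenna and of sensory organs 3 rose and 3 fell (4.55% each). Of all tested genes 4.95% rose and 9.14% fell, so that the share of rises was near that of all genes. The rises numbered 6 without male or female day 1 replicate 1 and 5 without male day 5 replicate 2, and the falls 5 without the latter. *dan*, which helps to specify the distal antenna, rose from 23.3 ± 9.22 to 57.9 ± 4.38, and *Sox14*, an ecdysone target, fell from 1618 ± 535 to 698 ± 27.3. The antennal selector *hth*, at 11626 ± 1483 and 16635 ± 1312, was higher in every library of day 5 but under the fold limit (0.52, adjusted p = 0.0165). Among the 10 tested homeobox cluster genes 5 rose and none fell, a count that was 1 without female day 1 replicate 2, male day 5 replicate 1 or female day 5 replicate 1 and 2 without male day 1 replicate 2. *lab* (FBgn0002522, 3R from 6661427 to 6678590) rose from 41.8, 33.1, 17.3 and 54.9 to 125, 159, 138 and 108 (change 1.92 ± 0.33, adjusted p = 0.00365). The changes of *pb*, *Abd-B*, *abd-A* and *bcd* were 0.69 to 0.88, and each of these 4 lost its call without female day 1 replicate 2, male day 5 replicate 1 or female day 5 replicate 1 and in part without other libraries.

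Other rises from low levels involved genes with known roles elsewhere. *erm* (FBgn0031375, 2L from 1950239 to 1970362), a zinc finger factor of neural progenitors and optic lobe neurons, stood at 22.2 and 25.6 in males and 39.4 and 11.8 in females of day 1 and at 108, 171, 107 and 167 at day 5, without overlap (change 2.51 ± 0.36, adjusted p = 0.00133). *vret* (FBgn0263143, 3R from 22742954 to 22745581), a Tudor protein of the piRNA pathway in ovaries, rose from 22.2, 32.1, 16 and 22.6 to 120.3, 113, 117 and 147 (2.40 ± 0.26), and *ACXD* (FBgn0040507, 3L from 2237608 to 2243719), an adenylyl cyclase of the testis, from 50.7, 33.1, 34.5 and 18.3 to 120.3, 162, 116 and 106 (1.92 ± 0.27). Each of the 3 rested on 569 to 637 reads in the 4 libraries of day 5. *fit*, a female-biased gene of the head fat body that also served as a fat body marker, rose from 10.7 and 9.62 in males and 17.3 and 59.2 in females to 22.5, 145, 105 and 845, with overlapping ages (change 2.78 ± 0.72, adjusted p = 0.0281). Of rising genes known by CG numbers, *CG11529* stood at 62.3, 78, 61.6 and 75.3 at day 1 and 483, 371, 689.6 and 489 at day 5, and *CG42246* at 150.4, 182, 399 and 249 against 1205, 971, 1554 and 809.6, both without overlap. Testis markers summed to 277 to 496 at day 1 and 293 to 495 at day 5. Noncoding RNAs with CR numbers rose in 75 and fell in 27 of 1510 cases (median 0.17), near the share of all genes for rises, although 26 rose without female day 5 replicate 1, 33 without male day 1 replicate 2 and 43 without male day 5 replicate 1. Without male day 1 replicate 2, 15 fell. The overall median log2 fold change of genes with a mean below 50 was 0.18, and their part in these counts was not tested.

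Some of the genes that fell lay side by side. Runs of neighbouring tested genes that all fell numbered 24 with 3 genes, 6 with 4, 1 with 6 and 1 with 9, and runs that all rose numbered 6 with 3 genes. Some runs arise in any order of genes, and more of them among 1295 falls than among 702 rises. How many a random order would give was not tested. The run of 9 is the Bomanin cluster on 2R, from 18382704 to 18390629, with *IM23*, *IM1*, *CG18107*, *CG15067*, *IM2*, *IM3*, *CG16836*, *CG15065* and *CG15068* and changes of -4.35 to -1.80. The run of 6 on 2L, from 7723045 to 7753186, holds the cuticle gene *Acp1* with *CG13795*, *CG13796*, *CG31904*, *CG7214* and *CG7203* (-5.60 to -0.59). Others hold *Gasp* with the odorant binding protein genes *Obp83cd*, *Obp83ef* and *Obp83g* on 3R (-4.09 to -3.07), *NimB2* to *NimB5* on 2L (-3.28 to -1.71), and *CG1468*, *CG9686*, *CG9689* and *CG9691* on X (-9.23 to -0.73). A rising run on 3R joined *TwdlF*, *TwdlG* and *CG14644* (0.61 to 2.22), where the first pair are of the Tweedle family of cuticle proteins. Overlapping neighbours without known strand counting cannot be told apart.

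Taken within each sex, males had 764 falls (5.39%) and 182 rises (1.28%), together 6.68% of genes, and females 821 falls (5.79%) and 447 rises (3.15%), together 8.95%. These counts rest on 2 libraries per age and depended on single libraries. In males, 42 rose and 247 fell without male day 1 replicate 2, 98 rose without male day 5 replicate 2, 499 fell without male day 1 replicate 1 and 427 fell without male day 5 replicate 1. In females, 178 rose without female day 1 replicate 1, 78 rose and 246 fell without female day 5 replicate 1, and 73 rose and 409 fell without female day 5 replicate 2. The difference between the sexes in their change was tested as an interaction of age and sex, and 0% of genes passed in limma, 0 in edgeR and 8 in DESeq2, with 445, 495 and 435 genes at an unadjusted p below 0.05. Without male day 5 replicate 1, 36 genes passed in limma, among them the photoreceptor genes *ninaE*, *Arr1*, *Arr2*, *trp* and *Rh4*, which stood high in the remaining library, male day 5 replicate 2, and 7 passed without male day 1 replicate 2.

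Among the 10 genes with the lowest p for that difference were *ple*, described above, with a difference of 1.67 ± 0.29 (males minus females, unadjusted p = 0.000239, adjusted p = 0.999 in limma), and a pair of clock genes. *tim* (FBgn0014396, 2L from 3493986 to 3508119), the partner of period, stood at 1588 and 1778 in males and 1657 and 1483 in females of day 1, and at 579, 835, 2612 and 1806 at day 5. The sexes were alike at day 1, and at day 5 both males were below and both females above their own level of day 1 (difference -1.74 ± 0.33, unadjusted p = 0.000489, adjusted p = 0.999). *vri* (FBgn0016076, 2L from 5288944 to 5311223), a clock repressor, had 2039, 1866, 1436 and 1807 at day 1 and 1004, 1399, 3017 and 2642 at day 5, with the same arrangement (difference -1.53 ± 0.29, adjusted p = 0.999). DESeq2 gave -1.72 and -1.48 for these differences, with adjusted p of 0.0188 and 0.061. Dissection time was not given, and its part in these values was not tested. *roX1*, an RNA of male dosage compensation, marked the sexes at both ages, at 14039 and 15496 in males and 726 and 395 in females of day 1 and 28215, 28327, 620.2 and 457 at day 5.

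The levels reached at day 5 were followed at later ages, without a test, since the same libraries of day 1 serve every later age. Day 10 has males only. The libraries labelled male day 50 replicate 2 and female day 50 replicate 2 went against the sex markers, so that levels of day 50 by sex are those of the labels. For the genes that fell, the median log2 difference from day 1 was -1.18 in males at day 5, -1.08 at day 10, -1.45 at day 25 and -1.02 at day 50, and in females -1.10, -1.17 and -0.86 at days 5, 25 and 50. For the genes that rose it was 0.90, 0.90, 0.70 and 0.42 in males and 1.10, 0.71 and 0.65 in females. Both sets were chosen on the libraries of days 1 and 5, which can enlarge their medians at day 5. How much of the smaller medians at later ages follows from this choice was not tested.

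Single genes took different courses. *alphaTub85E* stood at 121 and 119.7 in the males of day 10, lower than that in all 4 libraries of day 25, and at 47.4 to 66.6 in the 4 libraries of day 50. *Drs* stood at 5137 and 1151 in the males of day 10, at 258 and 482 in males and 73.4 and 777 in females of day 25, and at 1384 to 11483 at day 50, against 899 to 1603 at day 1. *e* stood at 184 to 483 at day 50. *Osi5* stood at 1404 and 1291 in the males of day 10, above every library of day 5, and stood at 465 to 1107 at day 50. *Est-6* stood at 63518 and 58203 at day 10 and 5591 to 22801 at day 50, and *erm*, at 202 and 153 in the males of day 10, stood at 7.31 to 49.9 at day 50, in the range of day 1 and beyond it. Of the 13 falling immune-induced peptides, the libraries of day 50 summed to 23749 to 88667, and of the 16 falling chitin genes to 4554 to 4914.

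**Figure D5:**
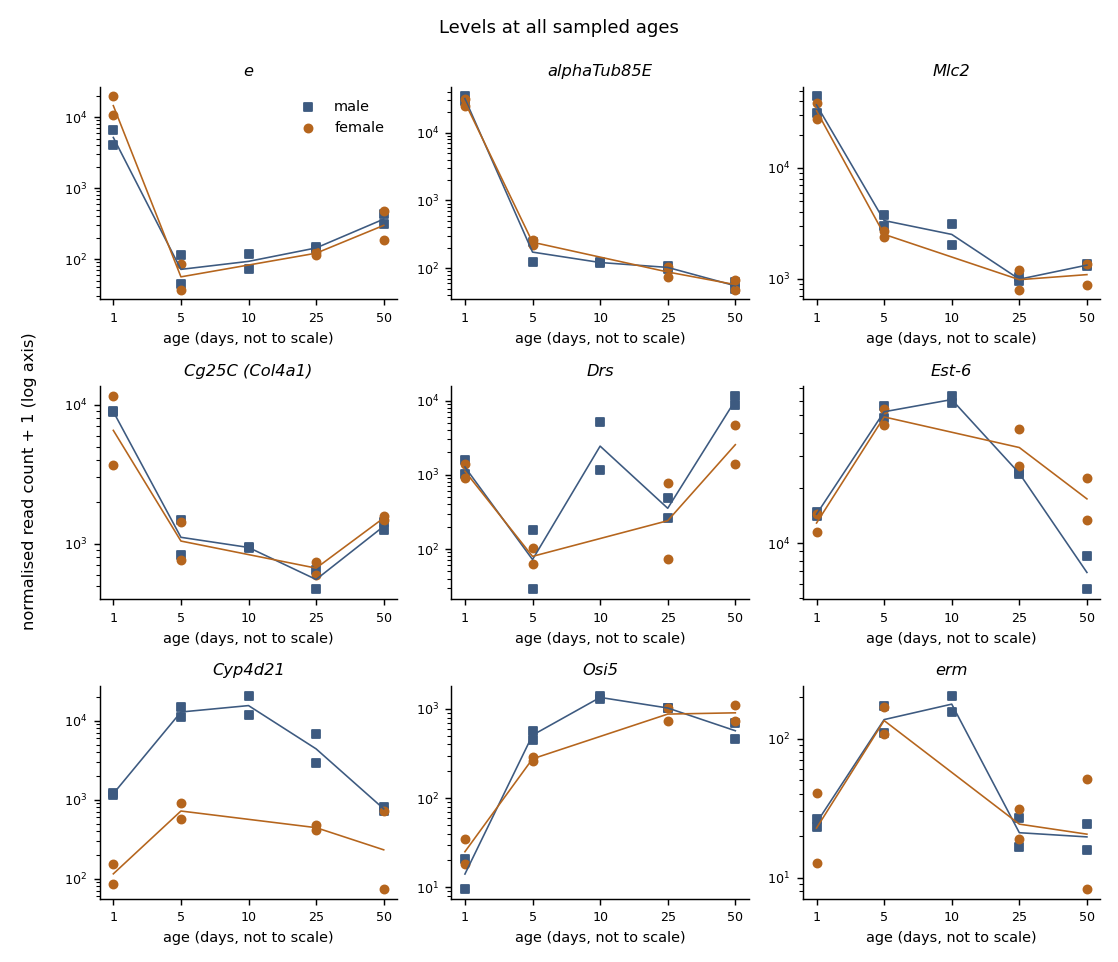
Normalised read counts plus 1 on a log axis for 9 genes at the 5 sampled ages (evenly spaced, not to scale), males as squares and females as circles, with lines through the means on the log scale. Sex at day 50 is as labelled, and day 10 has no females. *e*, *alphaTub85E* and *Mlc2* stay low after day 5, *Drs* rises again, and *Cyp4d21*, *Est-6* and *erm* peak at day 5 or 10 in males.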

How the data were processed

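RNA of 2nd antennal segments was pooled over flies until there was enough, amplified with SMART-Seq v4, made into Nextera XT libraries and sequenced in pairs on a NextSeq 500, according to the study's methods. The authors aligned reads to dm6 in Partek Flow and counted them per gene with HTSeq. The deposited values are a signal, normalised read counts, which the authors made by dividing the counts by 1 DESeq2 size factor per library. Versions and the strand setting are not given in the sources used here. In every library 100% of the values were whole multiples of 1 step to within 0.01 reads, and reads were recovered from these steps only for the totals and for the count tests named as alternatives. The deposited table also holds the authors' comparisons of ages (log2 fold changes, their errors, test statistics, p-values and adjusted p-values) and a mean over all samples, which were not used. Normalisation by size factors makes every value relative to the whole library.

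Genes with a normalised read count of at least 10 in at least 2 of the 8 libraries were tested (14171 genes) on log2(value + 1) with limma 3.58.1 (trend, R 4.3.3), with sex and age in the model, 5 residual and 5.33 prior degrees of freedom. A gene was called where p after Benjamini-Hochberg adjustment was below 0.1 and the fold change above 1.5. Changes within a sex and their difference came from a model with an interaction, with 4 residual degrees of freedom. The alternatives tried were the count tests of edgeR 4.0.16 and of DESeq2 1.42.0, pseudocounts of 0.5 and 5, other filters, TMM scaling, other models, stricter limits and leaving out each library. The code was tested on simulated data. Figures were drawn with matplotlib 3.10.9.

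The members and the 69 gene lists, built from symbol patterns, were chosen with earlier results of these data known, so that a list's count is a description and no list was tested. Genes are named by a fixed rule: the 15 largest called rises and falls (limited to a mean of 50 or more and to changes of 1 direction in males and females), the 10 most abundant called genes in each direction, the 4 largest called and 2 most abundant members of each list, the 10 with the lowest p for a difference between the sexes, and cell type markers. *Dronc* is outside it. Of the 16624 gene IDs 16332 were in the dm6 annotation used here, which gave 372 of 381 missing symbols and the current names in brackets. Coordinates are those of this dm6 annotation and not the deposited ones, which lay within 100 bases of them for 15774 gene IDs. Promoter sequences were not analysed here. Total reads in genes of 9917610 to 14315927 per library set the precision, and counting error was not estimated apart from the spread between libraries.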

Additional observations from a re-analysis of the deposited data

Results flagged for a closer look

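In 144 groups of 4 libraries (a described gene at 1 age, with both sexes together), 11 single libraries stood farther from the others than Dixon's 95% criterion allows, which chance does in about 1 in 20 groups. At day 1, female replicate 1 held 3 of them. It had 7175 normalised read counts of *b* against 3130 to 3550 in the others, 2328 of *Jheh2* against 1324 to 1451, and 11.1 of *Hsp70Bb* against 142 to 158. Male day 1 replicate 2 had 3985 of the larval fat body gene *Fbp2* against 181 to 563, and 52.4 of the cuticle gene *Cpr30F* against 15.1 to 19.6. Female day 1 replicate 2 had 2528 of the yolk protein gene *Yp1*, which differs between the sexes, against 94.3 to 305, and female day 5 replicate 2 had 11528 against 99.3 to 2039.

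At day 5, male replicate 2 held 77899 of the rhodopsin gene *ninaE* against 145 to 523 in the others, 383 of *Cyp4e3* against 71.5 to 101, and 737 of *CG33926* (now *Srg3*) against 61.5 to 64.9. Female day 5 replicate 2 had 489.6 of *nompA* against 426 to 431. The falls of *b*, *Fbp2*, *Hsp70Bb* and *Cyp4e3* and the rises of *Jheh2*, *Cpr30F* and *CG33926* were called in all fits that left out 1 library.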

How the results depend on the processing

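All 1997 calls rest on 8 libraries. No named gene that was called changed direction under any alternative, but 35 named genes that were not called changed sign under at least 1. With each library left out, rises numbered 438 to 697 (438 without female day 5 replicate 1) and falls 1063 to 1473. At an adjusted p below 0.05, 467 rose, and with a fold change above 2, 352 rose and 743 fell. edgeR shared 583 of the 702 rises and 1262 of the 1295 falls, DESeq2 679 and 1238. TMM scaling gave 623 rises and 1385 falls. Within males, with libraries left out, 42 to 221 rose and 247 to 868 fell, and 95 rose at an adjusted p below 0.05. Within females 73 to 618 rose and 246 to 1028 fell, 184 rose and 517 fell at an adjusted p below 0.05, and 266 rose with a fold change above 2. For the difference between the sexes DESeq2 called 8 genes, and leaving out 1 library gave 0 to 36. Leaving out female day 1 replicate 1 and male day 5 replicate 2 together, chosen after seeing the data because they stood apart on the second principal component, gave 655 rises and 1647 falls, 237 rises within females, and 2 genes for the difference between the sexes. The cause of these changes was not tested, beyond there being fewer samples in fits without a library. Leaving out 1 of 2 libraries of a group assumes that the lone sample varies like the others.

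No paired analysis was made. The labels carry no replicate numbers, and whether those used here, in order of deposit, match libraries across groups is not known. Replicate 2 lay above replicate 1 on the second principal component in all 4 groups of age and sex, and whether libraries shared a preparation was not tested. The search of promoter letters listed among the alternatives was not run. Called genes with a mean under 50 (323) had a median absolute log2 fold change of 1.53, those above 0.98.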
